A study of Mus musculus with 36 samples.

Results

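Mouse embryonic stem cells treated with BP were compared with the same cells treated with cortisol, DEP or PFOA, all for 72 h and all in medium with leukemia inhibitory factor (LIF), so that a difference is one between toxicants and not one from untreated cells. The comparison was made of the 6 libraries of BP (3 at 1 µM and 3 at 4 µM) against the 18 libraries of the other 3 toxicants, that is cortisol at 10 or 60 µM, DEP at 5 or 10 µM and PFOA at 60 or 100 µM with 3 libraries each. These are 24 of the 36 libraries of the series, chosen by their labels. The groups are called BP1, BP4, Cort10, Cort60, DEP5, DEP10, PFOA60 and PFOA100 (BP and DEP are not spelled out in the labels). Per the labels, all cells were of 1 FUCCI line of 129/sv origin, which carries fluorescent reporters of cell cycle phase, in 15% serum with LIF at 1000 U/mL, and the lower dose of each compound was the lowest to affect growth while the higher one suppressed growth by 75%. Doses were thus matched on growth and not on concentration, and 1 line limits the results to that line.

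LIF, acting through its receptor and the transcription factor Stat3, holds mouse embryonic stem cells in a naive state marked by Klf2, Esrrb and Zfp42. Cells leaving that state pass through a formative state marked by Otx2, Pou3f1 and Fgf5. Many aromatic pollutants bind the aryl hydrocarbon receptor (AhR), which pairs with Arnt on DNA and switches on Cyp1a1, Cyp1b1, Ahrr, Tiparp and Nqo1. Damaged DNA stabilises p53, whose targets include the cell cycle inhibitor Cdkn1a and the ubiquitin ligase Mdm2, and electrophiles release the transcription factor Nfe2l2 (NRF2), which drives glutathione and antioxidant genes.

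Sequencing was from the 3' ends of transcripts, and library totals were 1848254 to 6377296 counts in BP and 2204617 to 7288084 in the other toxicants, with the lowest total in BP4 replicate 3. The 8 embryonic stem cell markers (Pou5f1, Sox2, Nanog and others) summed to 1840 to 2657 CPM (counts scaled to a common library total) in BP libraries and 1414 to 2577 CPM in the others, and no marker of the 8 cell types examined differed between BP and the other 3 toxicants at the threshold. The 8 fibroblast and feeder markers summed to 34.3 to 45.8 CPM in BP, against 20.9 to 32.6 CPM in cortisol, 27.6 to 46.01 CPM in DEP and 12.1 to 45.2 CPM in PFOA. All 6 BP libraries thus lay above all 6 cortisol libraries, while the DEP and PFOA ranges overlapped that of BP. No other marker set of the 8 cell types separated BP in this way from cortisol, DEP or PFOA. Only 4 of the 8 fibroblast and feeder markers had counts high enough to be tested. The part of this separation from cortisol in the results was not tested. Ttr, 1 of 8 extraembryonic endoderm markers, and Tpbpa, 1 of 6 trophoblast markers, had no count in any of the 24 libraries. Other markers of both sets had counts. The endoderm set summed to 14.3 to 20.1 CPM in BP and 9.52 to 23.3 CPM in the other toxicants. The trophoblast set summed to 17.7 to 46.9 CPM in BP and 12.6 to 49.2 CPM in the other toxicants. The library labelled PFOA100 replicate 1 stood apart from the other 5 PFOA libraries. On the second principal component it lay at 1.26, against -41.6 to -11.2 in the other 5 PFOA libraries, -1.1 to 12.6 in BP and -5.67 to 43.8 in cortisol and DEP. Ooep, a gene of the oocyte and early embryo, had 107.5 CPM in it, against a mean of 29.3 CPM in the other 5. Whether it was treated as labelled was not tested. Every PFOA mean, range and count includes it unless said otherwise. Values without it are given at the end for counts of calls, for some of the genes described against PFOA and for some gene lists. It was not the only library to stand apart. On the first principal component Cort60 replicate 3 lay at 1.65, against 32.7 (BP1) to 67.0 (Cort10) in the other libraries of replicate 3. Cort10 replicate 3 had the highest value of the 24 libraries on the second component, 43.8.

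No gene passed the threshold for a difference between BP and the other 3 toxicants. Of 12796 genes tested, 0 (0%) had an adjusted p under 0.05 in edgeR's quasi-likelihood test with the replicate number as block, and 686 (5.36%) had an unadjusted p under 0.05, of which 385 were on the higher and 301 on the lower side in BP. The smallest adjusted p was 0.212, for Ldhb. There was also no gene with its 6 BP values all above or all below the 18 others (0%). A missed threshold does not show that BP acts like the others, but the intervals bound the differences: among the 8249 genes with a mean of at least 10 CPM, the 95% interval of BP over the others lay within 1.5-fold in either direction for 91.4% and within 2-fold for 99.5%. Over all genes tested, down to the lowest counts, these shares were 62.6% and 82.3%. DESeq2 and edgeR without the block also called 0 genes, while limma-voom called 1, and 29 were called when the filter on low counts was dropped.

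The genes nearest to a difference on the higher side were Ldhb, Camk2b, Igfbp4, Crabp1 and Dppa3, and on the lower side Peg10, Ptrf, Capn2, Cdkn2a and Pam. Ldhb, the heart-type subunit of lactate dehydrogenase, had 450, 447 and 1052 CPM in BP1 and 426, 448 and 922 CPM in BP4. Its lowest, median and highest values were 277, 393 and 900 CPM in cortisol, 431, 490 and 1011 CPM in DEP and 182, 285 and 491 CPM in PFOA. The groups overlapped, DEP was level with BP, and replicate 3 was the highest of its group throughout. The log2 fold change was 0.40 (95% interval 0.23 to 0.58, adjusted p = 0.212). BP lay above the others in all 3 replicate numbers, but the rule for naming genes required the same sign in all 3.

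Camk2b, a subunit of calcium/calmodulin-dependent protein kinase II, had 46.9, 40.7 and 55.1 CPM in BP1 and 39.1, 41.6 and 56.5 CPM in BP4, against a lowest, median and highest value of 15.9, 32.7 and 51.4 CPM in the other 18 libraries. Of those 18 libraries, 13 were below the lowest BP library. The log2 fold change was 0.53 (95% interval 0.29 to 0.78, adjusted p = 0.236). Igfbp4, which binds insulin-like growth factors, had 35.6 to 73.3 CPM in BP and 13.7 to 54.4 CPM in the others, with a log2 fold change of 0.56 (95% interval 0.29 to 0.83, adjusted p = 0.431). Crabp1, a retinoic acid-binding protein, averaged 112 ± 36.3 CPM in BP (SD, n = 6), against 82.5 ± 21.9 CPM in cortisol, 107 ± 43.0 CPM in DEP and 65.9 ± 25.1 CPM in PFOA (n = 6 each). Dppa3, a maternal factor that protects DNA methylation in the early embryo and is high in naive cells, averaged 113 ± 22.4 CPM in BP, against 86.2 ± 29.6 CPM in cortisol, 91.3 ± 19.07 CPM in DEP and 69.9 ± 22.6 CPM in PFOA. All 6 Dppa3 values in BP lay within the range of the other toxicants or just above it, from 76.1 to 136 CPM against 33.2 to 126.03 CPM.

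On the lower side, Peg10, a paternally expressed imprinted gene of retrotransposon origin needed in the placenta, had 108, 95.7 and 151 CPM in BP1 and 94.996, 87.2 and 134 CPM in BP4, against 80.7 to 255 CPM in the others with a median of 151 CPM. PFOA was the highest of the toxicants, with a mean of 186 CPM. The log2 fold change was -0.39 (95% interval -0.57 to -0.21, adjusted p = 0.236). Ptrf, a coat protein of caveolae, averaged 86.8 ± 25.2 CPM in BP and 106 ± 34.8 CPM in cortisol, 109 ± 31.5 CPM in DEP and 122 ± 19.5 CPM in PFOA, and its log2 fold change was -0.38 (95% interval -0.57 to -0.19, adjusted p = 0.444). Capn2, the large subunit of a calcium-dependent protease, had 15.7 to 40.6 CPM in BP and 20.6 to 59.1 CPM in the others, and Cdkn2a, the locus of the cell cycle inhibitor p16 and of the p53 activator ARF, had 30.2 to 58.7 CPM in BP and 29.7 to 135 CPM in the others. Pam, which amidates peptide hormones, had 3.48 to 12.3 CPM in BP and 3.92 to 21.5 CPM in the others. Of these 10 genes, Pam passed the threshold under none of 37 alternative settings. The other 9 passed under few, from 1 for Ptrf and Capn2 to 5 for Ldhb and Camk2b. These settings left out the filter on low counts, Cort60 replicate 3, PFOA100 replicate 1, or cortisol or DEP as comparator. No gene of the 10 changed sign in any setting. In the plot of their levels the black lines show how often PFOA, rather than all 3 comparators, is the group farthest from BP.

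**Figure D1:**
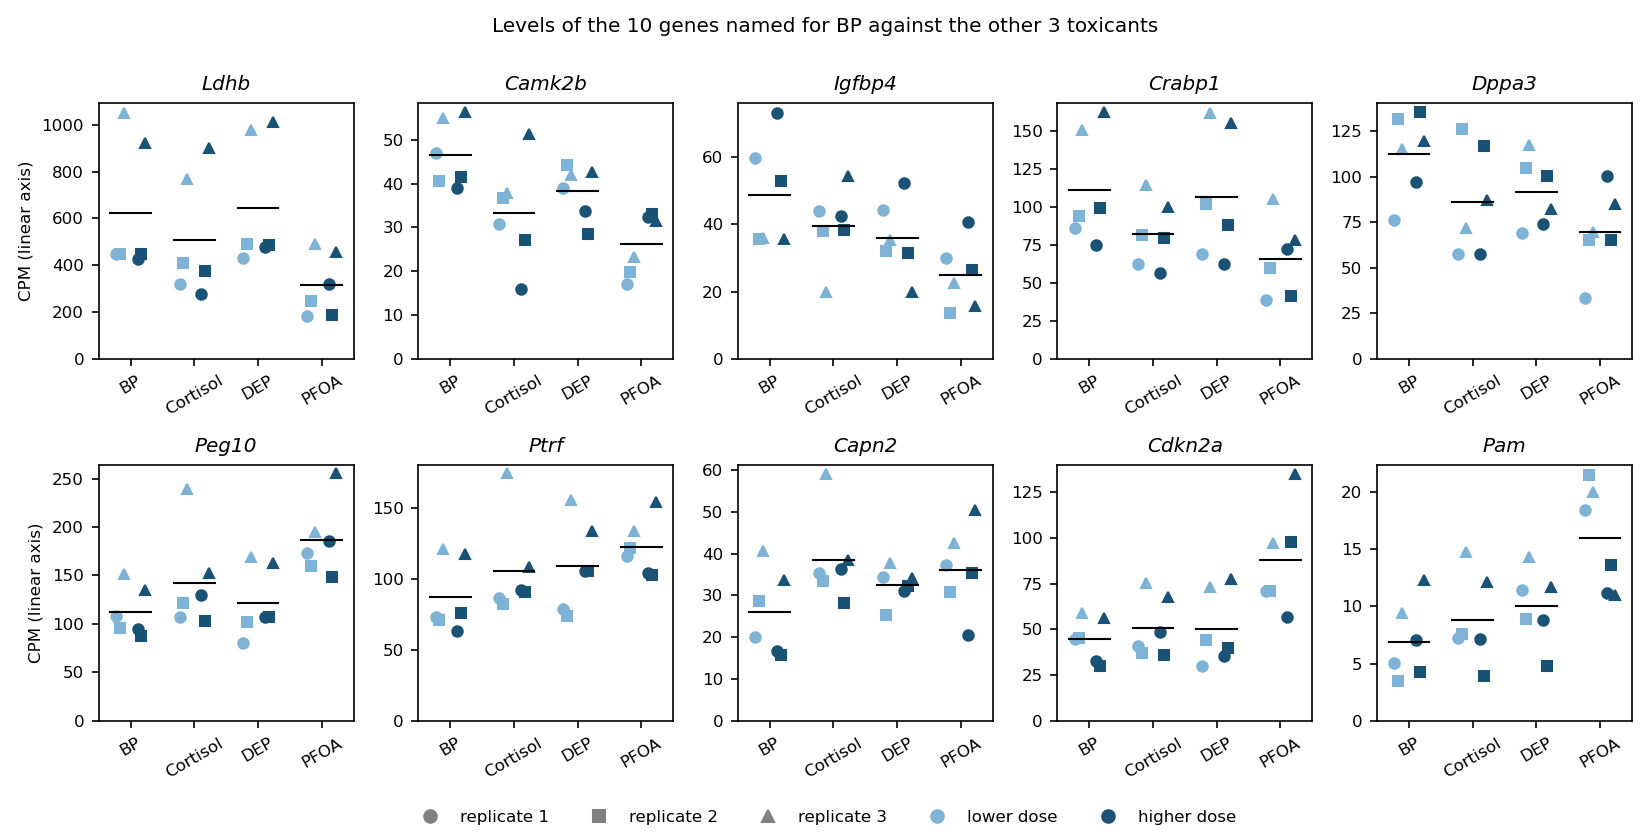
CPM (linear axis) of the 10 genes named for BP against the other 3 toxicants, 1 point per library, with the toxicant on the x axis, the shape giving the replicate number, the colour the dose and the black line the mean of 6 libraries. The BP points overlap those of the other toxicants in every panel, as for Ldhb with 426 to 1052 CPM in BP and 431 to 1011 CPM in DEP.

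Many aromatic compounds act through the AhR, so its target genes were examined by name. The promoters of Cyp1a1, which encodes the cytochrome P450 enzyme most strongly driven by the receptor, and of Tiparp, an ADP-ribosyltransferase that restrains it, are shown as the 250 bases before the start of transcription, from RefSeq on GRCm38.p6, 5′ to 3′ on the strand of the gene. Capitals mark the core that the receptor and Arnt bind, GCGTG, or its reverse complement CACGC. Cyp1a1 lies at chr9:57697363-57697612 (plus strand) and Tiparp at chr3:65528197-65528446 (plus strand).
Cyp1a1: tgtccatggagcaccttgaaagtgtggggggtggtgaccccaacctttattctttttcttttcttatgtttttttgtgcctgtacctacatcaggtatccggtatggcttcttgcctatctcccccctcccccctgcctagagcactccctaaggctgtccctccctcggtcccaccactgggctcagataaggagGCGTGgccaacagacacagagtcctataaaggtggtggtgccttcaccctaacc
Tiparp: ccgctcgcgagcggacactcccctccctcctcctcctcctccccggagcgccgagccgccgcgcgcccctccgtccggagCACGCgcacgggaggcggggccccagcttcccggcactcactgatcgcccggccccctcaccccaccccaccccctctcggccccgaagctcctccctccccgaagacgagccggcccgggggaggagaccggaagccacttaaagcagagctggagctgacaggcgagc
Each of the windows held the core once, Ahrr held it 3 times, Cyp1b1 once and Nqo1 0 times, and 28.2% of 32851 promoter windows of this length held it on either strand, so its presence describes the letters only.

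No AhR target that could be tested passed the threshold. Cyp1a1 had 0 counts in the 6 BP libraries together, which allows up to 0.109 CPM (3 counts of 27598006), and 7 counts in 4 of the 18 others. Cyp1b1, another AhR-driven P450, had 19 counts in BP and 74 in the others, and the receptor's repressor Ahrr had 27 counts in BP and 68 in the others. These 3 genes were too low to be tested. Tiparp had 60.8, 45.9 and 50.3 CPM in BP1 and 75.1, 61.1 and 43.0 CPM in BP4, against 29.5, 57.8 and 72.3 CPM as lowest, median and highest of the others. The ranges overlapped, and the log2 fold change was 0.01 (95% interval -0.21 to 0.22, adjusted p = 0.998), which bounds a rise of Tiparp at 1.17-fold. Nqo1, a quinone reductase under both AhR and NRF2, had 0.853 to 17.2 CPM in BP and 4.12 to 20.5 CPM in the others, with a log2 fold change of -0.50 (95% interval -1.06 to 0.07, adjusted p = 0.932). The receptor gene Ahr itself had 6.44 to 13.9 CPM in BP and 1.38 to 13.5 CPM in the others. Its partner Arnt averaged 82.3 CPM in BP and 64.4, 75.8 and 88.3 CPM in cortisol, DEP and PFOA. Of 22 genes on the AhR list 9 were tested, 0 passed, and their median log2 fold change was 0.15, beside 0.00 over all genes tested.

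DNA damage, repair and antioxidant genes also did not pass. Cdkn1a, the p53-driven inhibitor of cyclin-dependent kinases, had 348, 291 and 488 CPM in BP1 and 329, 273 and 419 CPM in BP4, against 192, 282 and 445 CPM as lowest, median and highest of the others. Cortisol averaged 291, DEP 383 and PFOA 246 CPM. DEP was thus level with or above BP, and the log2 fold change over all 3 was 0.23 (95% interval 0.06 to 0.40, adjusted p = 0.784). Ccng1, another p53 target, averaged 504 CPM in BP and 513, 593 and 480 CPM in cortisol, DEP and PFOA. Of 33 p53 targets tested 0 passed, with a median log2 fold change of 0.10, and 4 on the higher and 1 on the lower side at an unadjusted p under 0.05. Among 43 DNA repair genes 0 passed (median 0.01), with 0 on the higher and 2 on the lower side at an unadjusted p under 0.05. Parp1, a sensor of strand breaks, averaged 520 CPM in BP and 506, 526 and 480 CPM in cortisol, DEP and PFOA. The 95% interval of its log2 fold change ran from -0.09 to 0.19. Of 24 NRF2 targets and 27 phase II and transport genes 0 passed, with medians of -0.01 and 0.06. In the plot of these genes the intervals of the low genes Nqo1 and Ahr reach farthest, to -1.06 and 0.71.

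**Figure D2:**
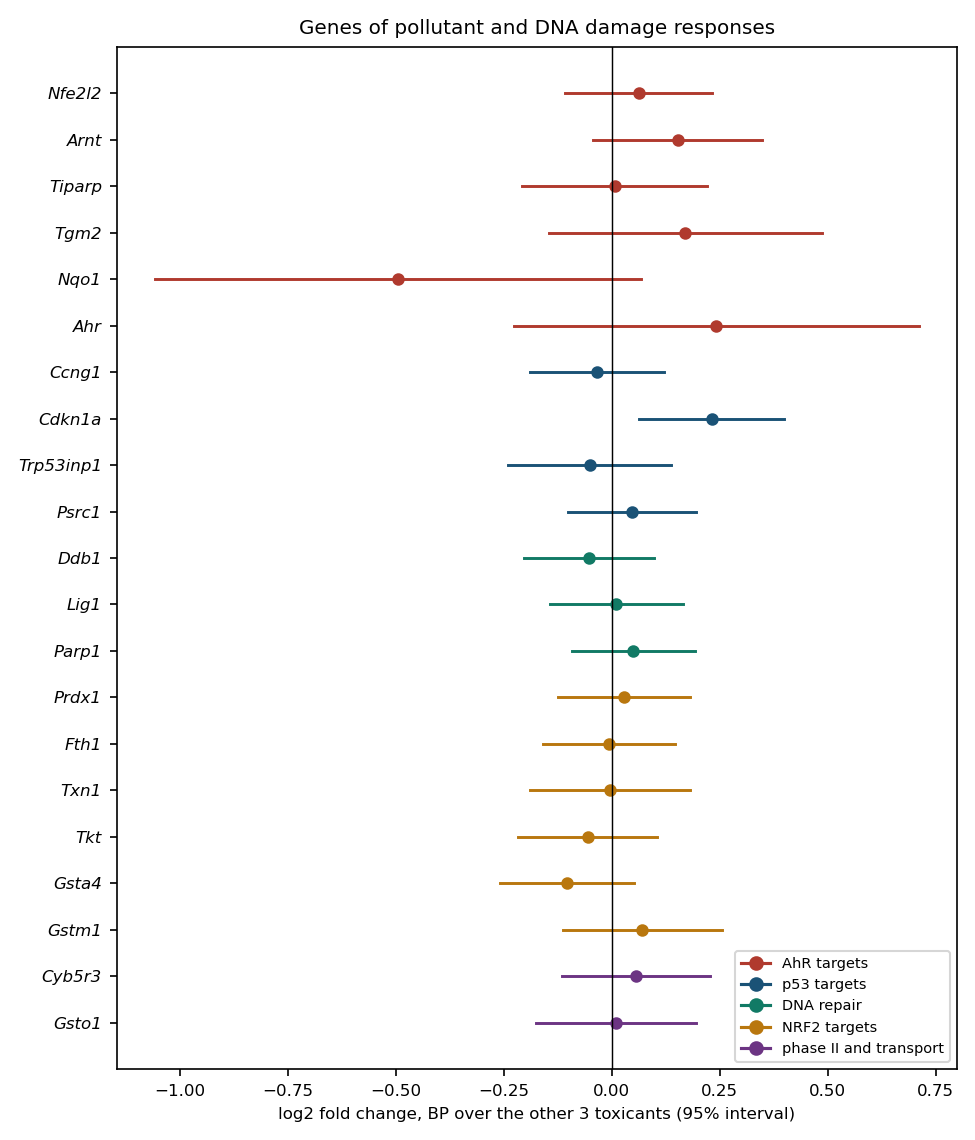
Log2 fold change of BP over the other 3 toxicants (points) with its 95% interval (lines) for 21 genes of the AhR, p53, DNA repair, NRF2 and phase II lists, coloured by list. The estimates run from -0.50 (Nqo1) to 0.24 (Ahr), and among these 21 only the interval of Cdkn1a, from 0.06 to 0.40, leaves out 0.

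Of the 39 lists drawn up, any without a gene in the counts could not be examined. No other list had a member past the threshold for BP against the other 3 toxicants, beside 0% of all genes. At an unadjusted p under 0.05, 3.01% of all genes were on the higher and 2.35% on the lower side in BP. The list that leaned most by that count was glycolysis and hypoxia, with 10 of 34 tested genes on the higher side and 0 on the lower and a median log2 fold change of 0.15. Its members ran from -0.03 for Egln3, an oxygen-sensing prolyl hydroxylase, to 0.50 for Pgk1, a glycolytic kinase. Hk2, which phosphorylates glucose, averaged 379 CPM in BP and 370, 343 and 285 CPM in cortisol, DEP and PFOA, and its log2 fold change was 0.22 (95% interval 0.06 to 0.39, adjusted p = 0.806). The same list had 4 genes higher and 2 lower against cortisol, beside 2.54% and 3.42% of all genes. It had 11 higher and 0 lower against DEP, beside 2.91% and 2.11% of all genes, and 12 higher and 0 lower against PFOA, beside 7.22% and 4.89% of all genes. The 3 comparisons share the BP libraries. Naive pluripotency genes counted 4 higher and 0 lower of 22 (median 0.20), and formative genes 4 higher and 2 lower of 19 (median 0.11). Germline genes counted 5 higher and 0 lower of 22 (median 0.23), and interferon response genes 0 higher and 6 lower of 24 (median -0.05). Eif2ak2, the RNA-sensing kinase PKR, is not on that list. It averaged 16.8 CPM in BP and 22.3, 21.8 and 25.8 CPM in cortisol, DEP and PFOA (log2 fold change -0.49, 95% interval -0.78 to -0.20, adjusted p = 0.669). Genes of the G1 and S phases (median 0.06, 3 of 32 higher), of the G2 and M phases (0.03, 2 of 28 higher and 1 lower), heat shock chaperones (-0.02, 0 of 21 on either side) and the respiratory chain (-0.02, 1 of 59 lower) lay close to all genes.

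Ribosomal protein genes took 13.6% to 19.07% of the counts in BP and 11.6% to 19.7% in the others, with means of 15.6% and 15.3% (exact permutation test within replicate numbers, two-sided p = 0.422 over 21952 arrangements). Within BP the 4 libraries of replicates 1 and 2 had 13.6% to 14.2% and those of replicate 3 had 18.4% to 19.07%, and the other toxicants split the same way, so that the share moved with the replicate number. Shares of small nucleolar RNA genes (exact permutation p = 0.832) and of clustered histone genes (exact permutation p = 0.786) and the library totals (exact permutation p = 0.748) also gave no difference past 0.05.

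At doses matched on growth, 0 of 12796 genes passed for BP1 against Cort10, DEP5 and PFOA60, with 453 at an unadjusted p under 0.05, and 0 passed for BP4 against Cort60, DEP10 and PFOA100, with 493. DESeq2 and limma-voom called 0 in both as well. At the lower dose Mycn, a MYC family transcription factor of stem cells, averaged 107 CPM in BP1, against 82.1 CPM in Cort10, 77.0 CPM in DEP5 and 48.7 CPM in PFOA60 (log2 fold change 0.71, 95% interval 0.31 to 1.10, adjusted p = 0.999). Klf2, a naive pluripotency factor, averaged 389 CPM in BP1, against 329, 319 and 252 CPM. Rab1b, which acts in transport from the endoplasmic reticulum to the Golgi, averaged 30.8 CPM in BP1, against 48.4, 46.6 and 53.1 CPM (log2 fold change -0.66, 95% interval -1.01 to -0.31, adjusted p = 0.999). At the higher dose Ramp2, which modifies the calcitonin receptor-like receptor, averaged 25.7 CPM in BP4, against 13.8 CPM in Cort60, 18.4 CPM in DEP10 and 11.1 CPM in PFOA100 (log2 fold change 0.90, 95% interval 0.42 to 1.38). Cdkn2a averaged 39.7 CPM in BP4, against 50.7, 50.9 and 96.4 CPM (log2 fold change -0.66, 95% interval -0.99 to -0.34). Without the library labelled PFOA100 replicate 1 the value of Ramp2 was 0.96 (adjusted p = 0.19) and that of Cdkn2a -0.73 (adjusted p = 0.056). None of these passed, and their groups rest on 3 BP libraries against 9.

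The 4-fold step in dose within BP also gave 0 genes past the threshold, with 163 of 12796 (1.27%) at an unadjusted p under 0.05. Xist is the RNA that silences an X chromosome in female cells. It had 11.7, 10.7 and 10.5 CPM in BP1 libraries and 29.9, 23.6 and 14.1 CPM in BP4 libraries. The log2 fold change of BP4 over BP1 was 0.99 (95% interval 0.30 to 1.68). The other 18 libraries had 4.61 to 26.3 CPM, and the adjusted p was 1. Mtrf1, a mitochondrial release factor, averaged 12.4 CPM in BP4 and 5.77 CPM in BP1, and Xrcc1, a scaffold of single-strand break repair, averaged 69.3 CPM in BP4 and 93.2 CPM in BP1 (log2 fold change -0.44, 95% interval -0.78 to -0.09). The test whether the BP dose step differed from the mean dose step of the other 3 toxicants gave 0 genes as well, with 301 at an unadjusted p under 0.05. Its smallest p belonged to Rnf122, a RING finger gene with 30.01 CPM in BP4 and 19.6 CPM in BP1, against 24.4 CPM in Cort60 and 22.6 CPM in Cort10, 17.2 CPM in DEP10 and 30.6 CPM in DEP5, and 20.5 CPM in PFOA100 and 28.3 CPM in PFOA60.

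A gene particular to BP would differ from each of the other toxicants in the same direction. That test, which takes the largest of the 3 p-values, called 0 genes, and 19 (0.148%) had a largest unadjusted p under 0.05. Csrp2bp, a subunit of the ATAC histone acetyltransferase complex, averaged 31.4 CPM in BP, against 42.0 CPM in cortisol, 42.4 CPM in DEP and 43.3 CPM in PFOA, and its largest p was 0.00786 (adjusted p = 1). A gene could be named from this test only if BP lay on the same side of all 3 toxicants. Capn2, Ptrf, Igf2bp3 and Eif2ak2 also lay below all 3 toxicant means. The RNA-binding protein gene Igf2bp3 had 104 CPM in BP against 125.95, 123 and 129 CPM. On the other side Rwdd1 averaged 54.3 CPM in BP and 43.1, 42.3 and 44.8 CPM in cortisol, DEP and PFOA (largest p 0.0204), and Mdm1, a centriole protein gene, 22.5 CPM in BP and 15.7, 16.0 and 16.4 CPM (largest p 0.0389). DESeq2, limma-voom and every fit that left out 1 library called 0 genes in this test too.

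Set against cortisol alone, 1 of 12796 genes (0.00781%) passed. Rnf128, an E3 ubiquitin ligase also known as GRAIL, was lower in BP than in cortisol. It had 215, 90.5 and 101 CPM in BP1 and 159, 109 and 114 CPM in BP4, against 118, 207 and 357 CPM as lowest, median and highest in cortisol. The ranges overlapped, and BP lay near DEP (mean 145 CPM) and PFOA (mean 121 CPM). The log2 fold change of BP over cortisol was -0.75 (95% interval -1.002 to -0.50, adjusted p = 0.00436). The call was lost in 3 of 24 fits without 1 library (BP1 replicate 3, Cort10 replicate 1 or Cort10 replicate 2, highest adjusted p 0.0593) and without the replicate block (adjusted p = 1). Other tools called more genes, 26 by DESeq2 and 10 by limma-voom. Below the threshold, Dtx3l, a ubiquitin ligase of the interferon response, averaged 18.5 CPM in BP and 35.2 CPM in cortisol (adjusted p = 0.0656). Rbbp7, a histone-binding subunit of chromatin complexes, averaged 272 CPM in BP and 378 CPM in cortisol (adjusted p = 0.0645). Neurl1b, a ligase acting on Notch ligands, averaged 16.4 CPM in BP and 7.85 CPM in cortisol (adjusted p = 0.0981). Of 24 interferon response genes 0 passed, 9 were lower and 0 higher at an unadjusted p under 0.05, and the median log2 fold change was -0.33. Of 17 tested genes of the glucocorticoid response, the pathway cortisol acts on, 0 passed and 3 were lower and 1 higher (median -0.20). Of all genes tested, 3.42% were lower and 2.54% higher in BP than in cortisol at that p.

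Set against DEP alone, 0 genes passed, with 643 at an unadjusted p under 0.05; DESeq2 called 1. The smallest adjusted p was 0.418. Gapdh, the glycolytic dehydrogenase, averaged 202 ± 57.3 CPM in BP and 126.2 ± 53.3 CPM in DEP (SD, n = 6 each), with a log2 fold change of 0.70 (95% interval 0.41 to 0.996); cortisol averaged 177 CPM and PFOA 190 CPM. Gapdh reads can be shared with its many processed pseudogenes in counting, so its value is uncertain. Phgdh, the first enzyme of serine synthesis, averaged 37.5 CPM in BP and 24.0 CPM in DEP, and Stom, a membrane protein gene, 47.5 CPM in BP and 70.6 CPM in DEP (log2 fold change -0.57, 95% interval -0.85 to -0.30, adjusted p = 0.418).

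The difference that passed the threshold in numbers was that from PFOA. BP libraries had 126 genes higher (0.985% of those tested) and 23 lower (0.18%), together 149 (1.16%), and in absolute log2 fold change these ran upward from 0.37 with a median of 0.79. Both naive and formative markers and several stress genes were among the genes higher in BP. For the 126 genes the median log2 fold change was 0.81 over PFOA, 0.11 over cortisol and 0.04 over DEP, and for the 23 genes -0.71, -0.16 and -0.21. The first value of each chose the genes and is a description, and all 3 comparisons share the BP libraries. The count depended on the fit: without the replicate block 0 genes passed, and DESeq2 called 247 and limma-voom 254. Leaving out 1 library gave 82, 86 and 85 genes without BP1 replicates 1, 2 and 3, 64 without BP4 replicate 2, 55 and 90 without PFOA60 replicates 1 and 2, and 537, 39 and 69 without PFOA100 replicates 1, 2 and 3. All 149 genes were among the 537 called without PFOA100 replicate 1, while 32 of the 149 were called in all 24 fits that left out 1 library.

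By the size of the positive difference, Gpx2, a glutathione peroxidase, led the genes with a mean of at least 10 CPM. It had 11.7, 17.4 and 18.1 CPM in BP1 and 16.4, 11.3 and 26.4 CPM in BP4, against 1.28, 2.18 and 12.2 CPM as lowest, median and highest in PFOA. The highest PFOA value was that of the library labelled PFOA100 replicate 1, and cortisol (16.9 CPM) and DEP (17.5 CPM) averaged as much as BP. Its log2 fold change over PFOA was 2.09 (SE 0.35, adjusted p = 0.00199). Psors1c2 had 12.6 to 20.9 CPM in BP and 1.99 to 9.34 CPM in PFOA without overlap (log2 fold change 1.68, SE 0.25, adjusted p = 6.27e-05). Dpys, dihydropyrimidinase of pyrimidine breakdown, had 19.5 to 49.7 CPM in BP and 5.30 to 20.4 CPM in PFOA. Calml4, a calmodulin-like gene, had 9.56 to 25.2 CPM in BP and 3.76 to 14.1 CPM in PFOA. Xlr3c, an X-linked gene of a multi-copy family whose reads may be split in counting, had 0.806 to 27.6 CPM in BP and 0.418 to 7.26 CPM in PFOA. Ldhb was 1.95-fold higher than in PFOA with the smallest adjusted p, 4.98e-07, and was level with DEP (0.956-fold).

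Among state markers, 4 of 22 naive genes (Klf2, Klf5, Dppa3, Spp1) and 4 of 19 formative genes (Otx2, Fgf5, Pou3f1, Etv5) were higher in BP than in PFOA and 0 of either list lower, beside 0.985% of all genes. Otx2, which directs the formative state, had 408, 426 and 158 CPM in BP1 and 407, 443 and 159 CPM in BP4, against 111, 169 and 305 CPM as lowest, median and highest in PFOA. Within each replicate number both BP values stood above both PFOA values, and cortisol averaged 389 CPM (log2 fold change over PFOA 0.82, SE 0.12, adjusted p = 0.000196). Fgf5, a growth factor of the post-implantation epiblast, had 0.524 to 15.5 CPM in BP and 0 to 1.28 CPM in PFOA, and cortisol averaged 5.94 CPM. Klf2 averaged 372 CPM in BP and 270 CPM in PFOA (log2 fold change 0.48, adjusted p = 0.0153), a call lost in 5 of the 24 fits without 1 library. The call of Spp1, a secreted phosphoprotein, was lost in 19 of these fits, that of Klf5 in 9, Pou3f1 in 4, Dppa3 in 3 and Etv5 in 1, and those of Otx2 and Fgf5 in 0. Sycp3, a protein of the meiotic chromosome axis, had 52.2 to 100.5 CPM in BP, against 30.8 to 55.6 CPM in PFOA (log2 fold change 0.82, adjusted p = 0.00136). The 4 germ cell markers, of which Sycp3 is 1, summed to 106 to 145 CPM in BP and 51.2 to 125.7 CPM in PFOA.

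Of all 149 genes called against PFOA 84.6% were higher in BP, and the list counts that follow are to be read beside 0.985% of all genes tested called higher and 0.18% called lower. Of 9 AhR targets tested, Il1r2, a decoy receptor of interleukin-1, was the 1 that passed (log2 fold change 1.29), and its call was lost in 11 of 24 fits without 1 library. Of 33 p53 targets, Cdkn1a, Btg2, Ak1 and Ephx1 were higher and 0 lower; Cdkn1a averaged 358 CPM in BP and 246 CPM in PFOA (log2 fold change 0.52, SE 0.10, adjusted p = 0.0045). Of 24 NRF2 targets, Gpx2, Cbr3 and Ephx1 were higher and 0 lower, the carbonyl reductase Cbr3 with 45.7 CPM in BP and 29.8 CPM in PFOA. Of 34 glycolysis and hypoxia genes, Hk2, the glucose transporter gene Slc2a1 and Ddit4 were higher and 0 lower. Ddit4, an inhibitor of mTORC1 induced by several stresses, averaged 1163 CPM in BP and 783 CPM in PFOA, with 651 to 1994 CPM and 287 to 1640 CPM as ranges (log2 fold change 0.67, adjusted p = 0.000292). Cpt1a, the gatekeeper of mitochondrial fatty acid oxidation and a PPAR target, was the only member of 23 in its list to pass, with 44.1 CPM in BP and 64.9 CPM in PFOA (log2 fold change -0.54, adjusted p = 0.0423), while Scd2, a fatty acid desaturase, averaged 191 CPM in BP and 260 CPM in PFOA. The Cpt1a call was lost in 13 of 24 fits without 1 library, that of Scd2 in 8, Ak1 in 11, Btg2 in 9, Slc2a1 in 7, Hk2 in 3, Cbr3 and Ephx1 in 2 each, and those of Cdkn1a, Gpx2 and Ddit4 in 0. The imprinted genes Peg10 and Ndn were lower, Peg10 with a log2 fold change of -0.75 (SE 0.11, adjusted p = 5.16e-05). The call of Ndn was lost in 16 of 24 fits without 1 library and that of Peg10 in 0. Cdkn2a averaged 44.7 CPM in BP and 88.1 CPM in PFOA (log2 fold change -0.98, SE 0.13, adjusted p = 2.04e-05), so that the 2 cell cycle inhibitor genes that passed differed in opposite directions. Pam, Rbmx, Large and Jph1 were the other genes named among the largest negative log2 fold changes, with calls lost in 0, 10, 6 and 7 of these fits.

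**Figure D3:**
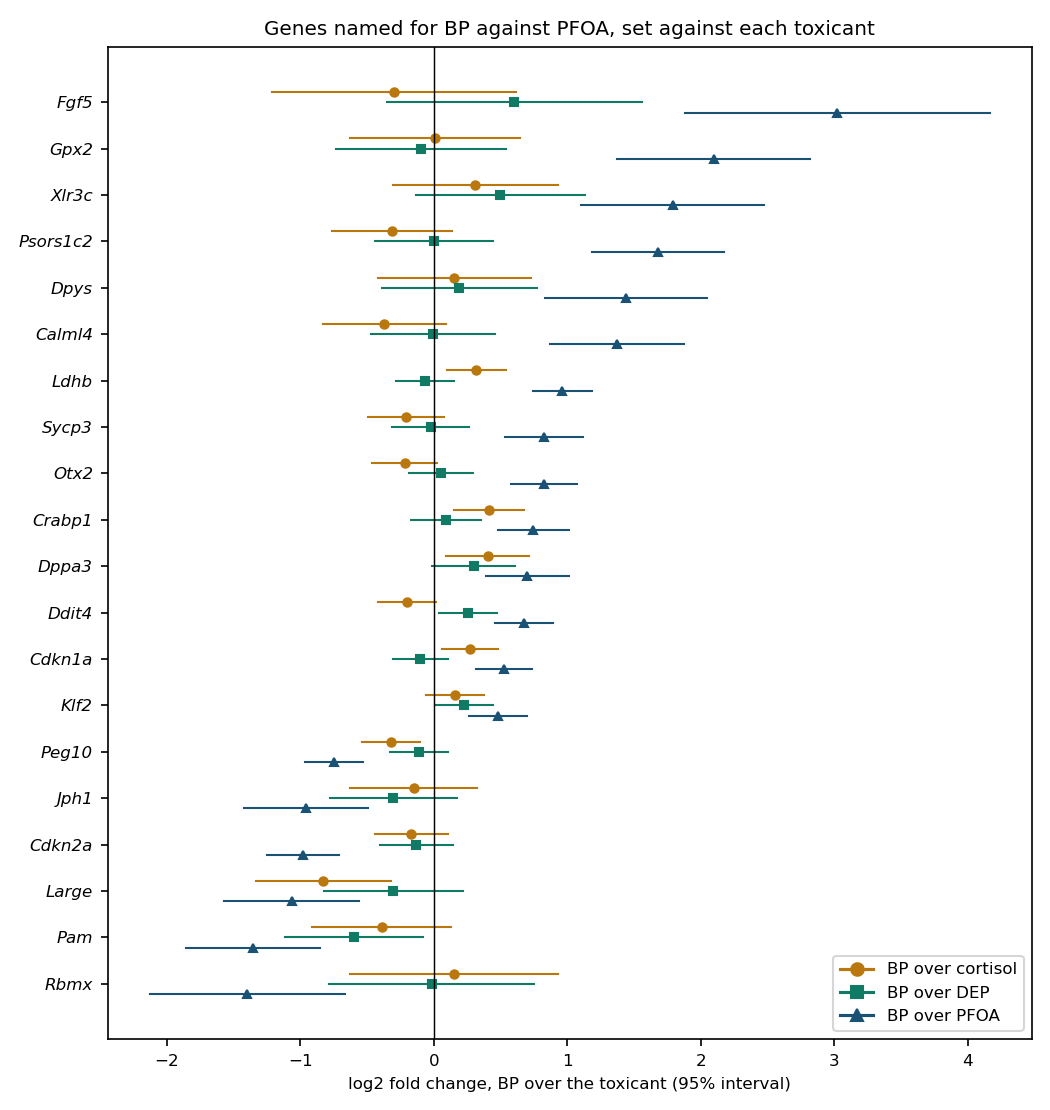
Log2 fold change of BP over cortisol (circles), DEP (squares) and PFOA (triangles) with 95% intervals for 20 genes that passed against PFOA, ordered by that value. The triangles run from 3.02 (Fgf5) to -1.40 (Rbmx), while Gpx2 has 0.01 over cortisol and -0.10 over DEP; the 3 comparisons share the BP libraries.

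Over the 126 genes higher in BP, each library's median log2 CPM difference from the BP mean was -0.10 to 0.19 in BP libraries, -0.36 to 0.17 in cortisol and DEP libraries and -1.05 to -0.65 in 5 PFOA libraries, while PFOA100 replicate 1 had -0.44. Over the 23 lower genes it was -0.09 to 0.11 in BP, 0.05 to 0.46 in cortisol and DEP and 0.69 to 0.85 in 5 PFOA libraries, and 0.38 in PFOA100 replicate 1. Both sets of genes were chosen by the difference between BP and PFOA in these same libraries, PFOA100 replicate 1 among them. The gap between BP and PFOA thus follows from that choice and is a description only. BP, cortisol and DEP libraries overlapped. PFOA100 replicate 1 lay between them and the other 5 PFOA libraries over the 126 genes, and within the range of cortisol and DEP over the 23 genes.

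**Figure D4:**
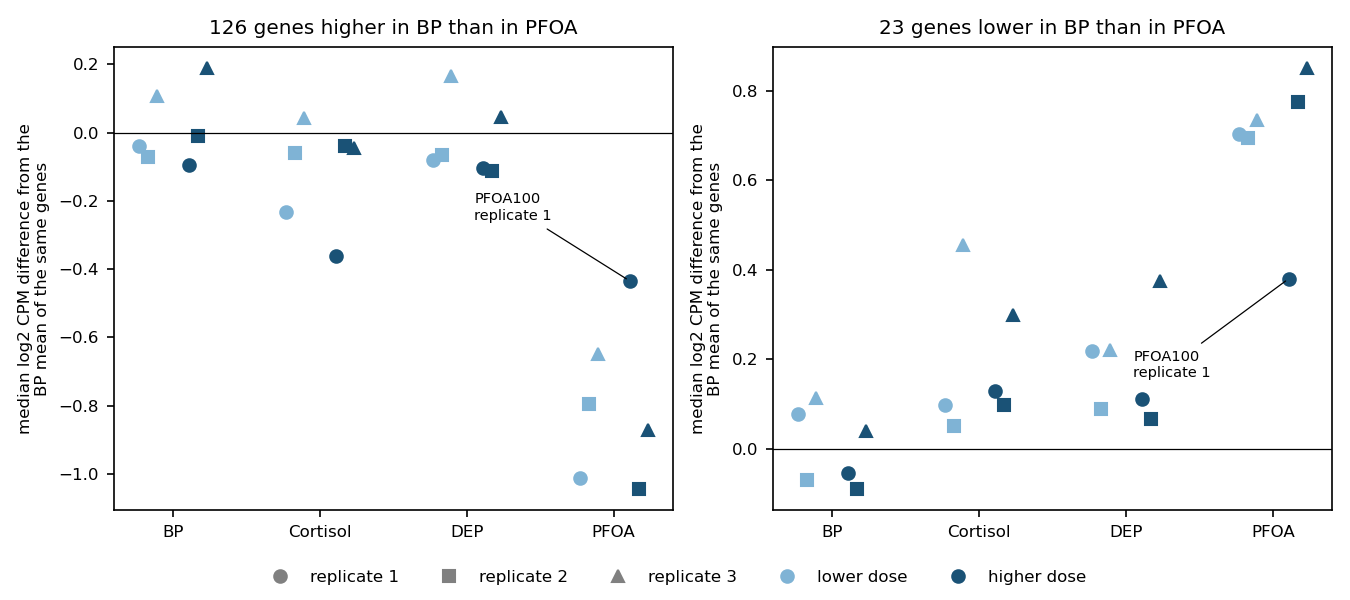
Median log2 CPM difference from the BP mean over the 126 genes higher (left) and the 23 genes lower (right) in BP than in PFOA, 1 point per library, with the toxicant on the x axis, the shape giving the replicate number and the colour the dose. The library labelled PFOA100 replicate 1 sits at -0.44 and 0.38, away from the other 5 PFOA libraries. The genes were chosen by the difference between BP and PFOA in these libraries, so the gap between those toxicants follows from the choice.

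Without the library labelled PFOA100 replicate 1, a choice made after seeing the data, BP against the other 3 toxicants had 36 genes past the threshold (0.276% of 13035 tested), 30 higher and 6 lower, of which 20 were among the 149. The test for a difference from each toxicant still called 0. The smallest adjusted p belonged to Ooep, with 93.9 ± 14.0 CPM in BP (SD, n = 6), against 67.7 CPM in cortisol, 74.1 CPM in DEP and 29.3 CPM in the 5 PFOA libraries (log2 fold change 0.96, SE 0.11, adjusted p = 1.75e-07). The gene for a germ cell inducer of meiosis, Stra8, averaged 14.6 CPM in BP, against 9.63, 13.9 and 2.58 CPM, with 48.7 CPM in the library left out. Enpp2, autotaxin, averaged 47.9 CPM in BP, against 68.6, 59.4 and 110.0 CPM (log2 fold change -0.67, adjusted p = 0.000181), and Sgk1, a kinase induced by glucocorticoids, averaged 131 CPM in BP and 141 CPM in cortisol, against 124 CPM in DEP and 39.8 CPM in PFOA. In each of these the 5 PFOA libraries were the group farthest from BP. Against PFOA alone without that library, the 38 genes named by rule were all called, and 34 had a larger absolute log2 fold change. These genes were chosen by the difference between BP and PFOA. Over the genes called higher, the library left out lay nearer BP (-0.44) than the other 5 PFOA libraries (-1.05 to -0.65). Calls and larger values without it thus follow in large part from these choices and are a description only. Gpx2 had a log2 fold change of 2.98 without it and 2.09 with it, Psors1c2 1.91 and 1.68, Xlr3c 2.03 and 1.79, and Ldhb 1.14 and 0.96. Among state markers, Klf2 had 0.64 without it and 0.48 with it, Fgf5 3.17 and 3.02, Otx2 0.70 and 0.82 and Sycp3 0.73 and 0.82. Cdkn1a had 0.62 without it and 0.52 with it, Ddit4 0.71 and 0.67, Cbr3 0.67 and 0.64, Cpt1a -0.67 and -0.54, Scd2 -0.36 and -0.43, Peg10 -0.71 and -0.75 and Cdkn2a -1.08 and -0.98. Of all 13035 genes tested without it, 398 (3.05%) were higher and 139 (1.07%) lower in BP than in PFOA. The naive list then had 10 of 22 genes higher and 0 lower and the formative list 7 higher and 1 lower of 19. The p53 list had 6 of 33 higher, the NRF2 list 3 of 24 and the glycolysis and hypoxia list 7 of 34, with 0 lower in each. The list of the 2-cell-like state had 6 of 7 genes higher without it and 0 of 7 with it. Other lists had genes on the lower side. Interferon response had 2 higher and 4 lower of 26, and glucocorticoid response 3 higher and 2 lower of 17. The metal and metallothionein list had 0 higher and 2 lower of 12.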

How the data were processed

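The authors deposited raw read counts per gene for 21516 genes, not normalized; per the submitters' processing notes the build was mm9 and the tools named are edgeR, HTSeq, STAR and CASAVA 1.8.2, with settings, strand and annotation not given in the sources used here. Per the labels, RNA was taken with Trizol and libraries were QuantSeq 3'. Here 24 count columns were used, and the 24 columns of untreated cells (NS) in the same tables were not. edgeR 4.0.16 in R 4.3.3 (filterByExpr by group, 12796 genes; TMM; estimateDisp and glmQLFit, robust) fitted 1 mean for each of 8 groups and the replicate number as block, with 14 residual degrees of freedom and a common biological coefficient of variation of 0.194. Contrasts were tested by quasi-likelihood with Benjamini-Hochberg adjustment over all genes tested and a threshold of 0.05; SE is the log2 fold change over the square root of F, and 95% intervals use the test's degrees of freedom. CPM are counts over TMM-scaled totals. The alternatives used DESeq2 1.42.0 and limma 3.58.1. The fit was tested on simulated data. The genes named by rule for a comparison had the largest log2 fold changes past the threshold, or the smallest p where fewer than 5 of a direction passed, with the same sign in all 3 replicate numbers, a group mean of 10 CPM or more on the higher side and a symbol that is no predicted-gene name; list members are named by level or by the threshold against PFOA, and genes named without PFOA100 replicate 1, as well as Pgk1, Egln3 and the promoters shown, were chosen after their values were seen. The members and gene lists were chosen with earlier results of these data known, and the comparisons with cortisol, DEP and PFOA singly were added after the data were seen. Deviations from group means correlated by 0.302 on average between libraries of the same replicate number (78 of 84 pairs over 0.1, lowest 0.02) and by -0.145 between different numbers, and all 24 libraries correlated best with their own number. The block is part of the comparison as defined, whatever this check showed. Chi-square per degree of freedom was 5.15 to 32.1 between replicates and 3.00 to 53.9 over all 276 pairs of libraries, so none of these pairs agreed within sampling noise. Intervals on counts and floors cover counting error only. Multi-copy genes, histones and pseudogene parents are uncertain. Promoters were matched by symbol, 5 of 5, to RefSeq on GRCm38.p6. A gene chosen by level from the DNA repair list is not reported here and is left out of the plot of that list.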

Additional observations from a re-analysis of the deposited data

How the results depend on the processing

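The count of genes called depended on the fit. For BP against the other 3 toxicants, where 0 passed, limma-voom gave 1, no filter on low counts 29, and leaving out cortisol or DEP as comparator 11 or 7, while leaving out PFOA gave 0; single libraries or replicate numbers left out gave 0 to 36 (3 without Cort60 replicate 3, 9 without replicate 1, 36 without PFOA100 replicate 1). For BP1 and BP4 at matched doses the count went to 11 for each with no filter, 1 for BP4 without cortisol, and 0 to 3 and 0 to 4 with libraries left out. The BP dose step and its difference from the other steps each gave 1 gene with no filter. Without the replicate block, counts for BP against cortisol and PFOA were 0 and 0, in place of 1 and 149, and the block changed no other count. The 38 genes named against PFOA kept their sign without the block, with adjusted p of 0.0635 to 1. They were chosen by their difference from PFOA in these same libraries, so the kept sign is a description only. Against cortisol, RLE size factors gave 3, DESeq2 26, limma-voom 10 and no filter 48, with 0 to 21 on leaving libraries out. Against DEP, DESeq2 gave 1 and no filter 34, with 0 to 2 on leaving libraries out. Against PFOA, DESeq2 gave 247, limma-voom 254 and no filter 314, and leaving libraries out gave 8 to 537 (8, 67 and 240 without replicates 2, 3 and 1). RLE size factors, a minimum of 10 CPM and no robust estimation gave 153, 127 and 154. Over all settings, values of named genes turned sign past the threshold in 0 cases, lost a call in 271 and gained a call in 75. In 4246 cases the result stayed the same, and in 3 an uncalled value moved without a call. The width of the intervals differed between comparisons. Over all genes tested the 95% interval lay within 1.5-fold for 62.6% of genes in BP against the other 3 toxicants. This share was 46.6% for BP1 and 44% for BP4 at matched doses, and 36.4% for BP4 against BP1. The cause of these changes in counts and of the differences in width was not tested.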
